A study of Arabidopsis thaliana with 8 samples.

Results

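GRP7 (AT2G21660, also called CCR2) and GRP8 (AT4G39260, also called CCR1) are a pair of Arabidopsis thaliana genes for small glycine-rich RNA-binding proteins. They were chosen by locus, as all array probes whose annotated transcript maps to either gene, and make up 2 of the 18497 genes with a locus that were tested. The arrays held 5 such probes, 3 for GRP7 and 2 for GRP8. All 5 passed the filter on dim probes.

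Each protein joins an RNA recognition motif to a glycine-rich tail. Transcript levels of both genes cycle under the circadian clock with an evening peak. GRP7 protein binds its own pre-mRNA and that of GRP8 and favours a splice form that is degraded by nonsense-mediated decay, so that the pair forms a feedback loop downstream of the core clock. LHY is a morning-expressed clock protein of the MYB-like kind and binds evening elements in promoters of clock-controlled genes. GRP7 is also known for roles in flowering time, cold response and immunity. The effect of raised LHY on the pair in these seedlings is the question the comparison of lines addresses.

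The study compared Alc::LHY seedlings, which carry an additional copy of LHY behind an alcohol-inducible promoter, with wt seedlings. Both lines were in the Col-0 background and were grown for 2 weeks under a 12 h photoperiod before the move to continuous light. At 17 h of continuous light ethanol was applied to the roots and then kept up as vapour, and the labels give the same treatment to both lines. RNA of whole seedlings was taken at 0, 2, 4 and 8 or 9 h after ethanol. Each array carried both lines in different dyes. There were 2 arrays per time, called replicates S and I, and the last time was 9 h in S and 8 h in I. Alc::LHY RNA carried Cy5 in S and Cy3 in I, and each replicate occupied its own slide, so a dye effect, a slide effect and a replicate effect cannot be told apart. Separate cultures are not stated for S and I, so the spread behind each p-value is that between these samples and may be technical. No group held the ethanol switch without the LHY copy, and how many transgenic lines stand behind the Alc::LHY samples was not stated. No later time was sampled without ethanol. Within a line, a change from 0 h due to ethanol and one due to time in continuous light therefore cannot be told apart. In whole seedlings, fewer cells of a type and less RNA per cell cannot be told apart.

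In wild type LHY itself failed to stand well above background on either array at 0 and 2 h, as it did in Alc::LHY on either array at 0 h. At 2 h it was well above background in Alc::LHY on both arrays, with a fitted level 1.49-fold higher than the wild-type reading (limma, adjusted p = 0.0301). Genes other than the pair were also fitted under 12 other settings, 4 of them other processing choices and 8 leaving out 1 array each. The LHY call at 2 h was lost in 6 of the 12, with median centring, without the replicate block and without either array of 2 h or of 8-9 h. Over the 12 settings the LHY value at 2 h ran from 0.30 to 2.51 on the log2 scale, beside 0.57 in the reported fit. The highest came with the scanner software's ratio, and 0.81 came without background subtraction, both called. Wild-type LHY was not well above background at 2 h, so the 1.49-fold may understate the difference. At 2 h the log2 ratio of LHY was 0.97 on the S array and 0.17 on the I array. At 4 h the ratios were 0.51 and 0.26, and at 8-9 h 0.35 and 0.13, with LHY well above background in both lines. Across all genes the ratios of S and I correlated at -0.39 at 0 h, 0.65 at 2 h, 0.81 at 4 h and 0.87 at 8-9 h. These correlations run across genes, which are not independent replicates.

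Signals of the 5 probes were far from the limits of the scanner. Every one was well above background in both dyes on 8 of 8 arrays, with 0 saturated spots and 0 outlier flags. The brightest GRP7 probe, A_84_P805950, read 9969 to 52143 units in Cy3 and 51992.5 to 132746 units in Cy5. The brightest GRP8 probe, A_84_P763419, read 7133 to 18052 units in Cy3 and 24511.5 to 45355 units in Cy5. Local background at the 5 spots was 28 to 79 units, and the brightest feature of an array reached 279463 units or more. These brightest probes stand for their genes below.

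The GRP7 transcript was lower late in the experiment than at its start in Alc::LHY, and its wild-type values lay lower as well. The normalized log2 level of GRP7 in Alc::LHY was 16.23 in S and 16.03 in I at 0 h, and 16.19 in both replicates at 2 h. It was 15.24 and 15.30 at 4 h, and 14.81 and 13.85 at 8-9 h. Every Alc::LHY channel at 4 h and at 8-9 h thus lay below every Alc::LHY channel at 0 and 2 h, and the replicates of the last time differed most. In the separate-channel fit with limma, in which both dyes of an array are modelled as single levels, GRP7 in Alc::LHY fell by 0.86 ± 0.28 on the log2 scale (SE, n = 2) from 0 to 4 h (adjusted p = 0.0464). Of all genes, 28% were called in that comparison at an adjusted p under 0.05. From 0 to 8-9 h GRP7 fell by 1.80 ± 0.28 (adjusted p = 0.00133), which is 3.47-fold, with a 95% interval of -2.43 to -1.16. Alc::LHY had 34.1% of genes called over that span. The call at 4 h was lost when any single array of 0, 2 or 4 h was left out, and the one at 8-9 h kept under every alternative. The share of genes with a more negative change than GRP7 was 0.789%.

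In wild type the GRP7 level was 15.71 in S and 16.09 in I at 0 h, and 15.84 in both at 2 h. It was 15.61 and 15.33 at 4 h, and 14.73 and 15.14 at 8-9 h. Both channels of the last time lay below all 6 earlier wild-type channels. The wild-type change from 0 to 8-9 h was -0.96 ± 0.28 (SE, n = 2), with a 95% interval of -1.59 to -0.33. It did not pass the test across all genes (limma, adjusted p = 0.105), where 3.77% of genes were called. Only 0.915% of genes had a more negative wild-type change over that span. At 4 h the wild-type change was -0.43 ± 0.28 (limma, adjusted p = 0.542), with 0.794% of genes called.

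GRP8 was lower at the end in Alc::LHY, while its wild-type change did not pass the test. In Alc::LHY the GRP8 level was 14.31 in S and 14.53 in I at 0 h, then 14.51 and 15.05 at 2 h. It was 13.97 and 14.26 at 4 h, and 13.82 and 13.66 at 8-9 h. The channels of the last time were the lowest of the line, and the highest was replicate I at 2 h. GRP8 in Alc::LHY fell by 0.68 ± 0.18 (SE, n = 2) from 0 to 8-9 h, or 1.60-fold (limma, adjusted p = 0.0162). Of all genes, 11.9% had a more negative change. The GRP8 call was lost when either array of 0 h or the replicate I array of 8-9 h was left out, with -0.43 in the last case (limma, adjusted p = 0.165). The changes to 2 h (0.36 ± 0.18, adjusted p = 0.219) and to 4 h (-0.31 ± 0.18, adjusted p = 0.239) did not pass the limma test, and 14.8% of genes were called at 2 h.

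In wild type GRP8 read 14.25 in S and 14.29 in I at 0 h, 14.59 and 14.44 at 2 h, 14.60 and 14.29 at 4 h, and 14.36 and 14.43 at 8-9 h. All 8 wild-type channels thus lay within a narrow band, and the first time held the lowest of them. The wild-type change from 0 to 8-9 h was 0.12 ± 0.18, with a 95% interval of -0.28 to 0.52 (limma, adjusted p = 0.826). Of all genes, 68.9% had a more negative wild-type change.

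**Figure D1:**
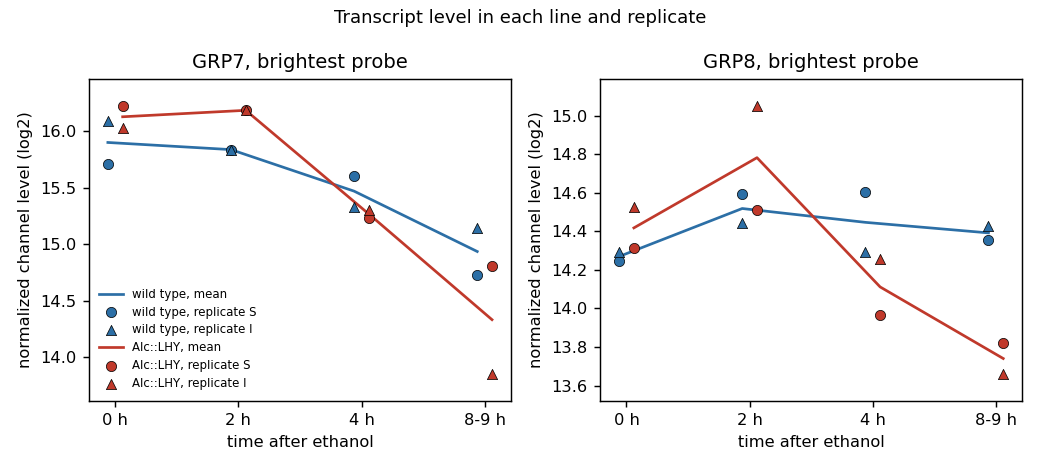
Normalized log2 level of GRP7 and of GRP8 in each channel against time after ethanol, with wild type in blue, Alc::LHY in red, circles for replicate S, triangles for replicate I and lines through the means of 2 channels. At 8-9 h the Alc::LHY channels of GRP8 (13.82 and 13.66) lie below the wild-type ones (14.36 and 14.43), while those of GRP7 lie on both sides of the lower wild-type channel.

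The direct comparison of lines on each array gave a called difference for GRP8 at the last of the 4 times and at no other. The GRP8 log2 ratio of Alc::LHY over wild type was 0.07 in S and 0.23 in I at 0 h, and -0.08 and 0.61 at 2 h. At 4 h it was -0.64 and -0.04, and at 8-9 h -0.54 and -0.77. Both arrays were below 0 at 4 h and at 8-9 h, and the arrays of 2 h lay on opposite sides of 0. The fitted GRP8 difference was 0.15 ± 0.17 (SE, n = 2) at 0 h, 0.26 ± 0.17 at 2 h and -0.34 ± 0.17 at 4 h, with limma adjusted p of 1.0, 0.363 and 0.163. The shares of all genes called at those times were 0.014%, 14.2% and 36.7%. At 8-9 h GRP8 was lower in Alc::LHY by 0.65 ± 0.17 on the log2 scale, or 1.57-fold (limma, adjusted p = 0.0236). The 95% interval was -1.05 to -0.25. At that time 36.7% of all genes were called, 20% as lower, so a call in this direction was common. Without the replicate I array of 8-9 h the GRP8 value was -0.29 (limma, adjusted p = 0.390), and without the replicate S array it was -1.01 and stayed called. Median centring in place of loess gave -0.49 (limma, adjusted p = 0.291), and the scanner software's own ratio -0.52 (limma, adjusted p = 0.0757).

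GRP7 passed the test at none of the 4 times. Its log2 ratio was 0.52 in S and -0.06 in I at 0 h, and 0.35 in both at 2 h. At 4 h it was -0.37 and -0.03, and at 8-9 h 0.08 and -1.29. Both arrays were above 0 at 2 h and below 0 at 4 h, but at the last time replicate I alone was low. The fitted GRP7 difference was 0.23 ± 0.27 (SE, n = 2) at 0 h, 0.35 ± 0.27 at 2 h, -0.20 ± 0.27 at 4 h and -0.60 ± 0.27 at 8-9 h. The limma adjusted p of these were 1.0, 0.457, 0.582 and 0.123, and the 95% interval at 8-9 h was -1.24 to 0.03. Without the replicate I array of 8-9 h the GRP7 value was 0.040, and without the replicate S array it was -1.25 (limma, adjusted p = 0.0312).

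The shift of the line ratio between times was tested in the same fit, and no shift of either gene was called. The shares of all genes called were 4.13% from 0 to 2 h and 17.3% from 0 to 4 h. From 0 to 8-9 h the GRP8 ratio shifted by -0.80 ± 0.24 (SE; limma, adjusted p = 0.0607), where 19.1% of genes were called. The GRP7 shift over that span was -0.83 ± 0.38 (limma, adjusted p = 0.175). From 2 to 4 h the GRP8 shift was -0.60 ± 0.24 (limma, adjusted p = 0.272) and the GRP7 shift -0.55 ± 0.38 (adjusted p = 0.511), with 0.102% of genes called. From 4 to 8-9 h the shifts were -0.32 ± 0.24 for GRP8 and -0.40 ± 0.38 for GRP7, and limma called 0% of genes. 

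The other 3 probes gave the same sign of the mean line difference at 2 h and at 8-9 h. Over the 5 probes the mean log2 ratio was 0.26 to 0.61 at 2 h, all above 0, and -0.65 to -0.53 at 8-9 h, all below 0. At 4 h it was -0.43 to 0.11, with 4 of 5 below 0. Probes of a gene share their samples and are not replicates of a condition. The replicates differed: at 2 h 1 of 5 probes was above 0 in S and 5 of 5 in I. At 4 h 0 of 5 were above 0 in S and 3 of 5 in I. At 8-9 h 1 of 5 was above 0 in S and 0 of 5 in I.

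Probe A_84_P15790 of GRP8 shows the replicate gap most clearly. Its log2 ratio was -0.26 in S and 0.24 in I at 0 h, -0.52 and 1.51 at 2 h, -0.98 and 0.29 at 4 h, and -0.87 and -0.36 at 8-9 h. Replicate I was above replicate S at all 4 times. Its S minus I term was -1.08 and that of GRP7 probe A_84_P756276 was -0.95, against 0.40 for A_84_P805950. In a fit over all probes none of the 5 terms was called (limma, adjusted p of 0.156 to 0.665), as was the case for all but 0.0738% of probes. In that fit A_84_P763419 was called at 8-9 h (limma, adjusted p = 0.0230), and the other 4 probes had adjusted p of 0.111 to 0.306, while 34.9% of all probes were called.

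**Figure D2:**
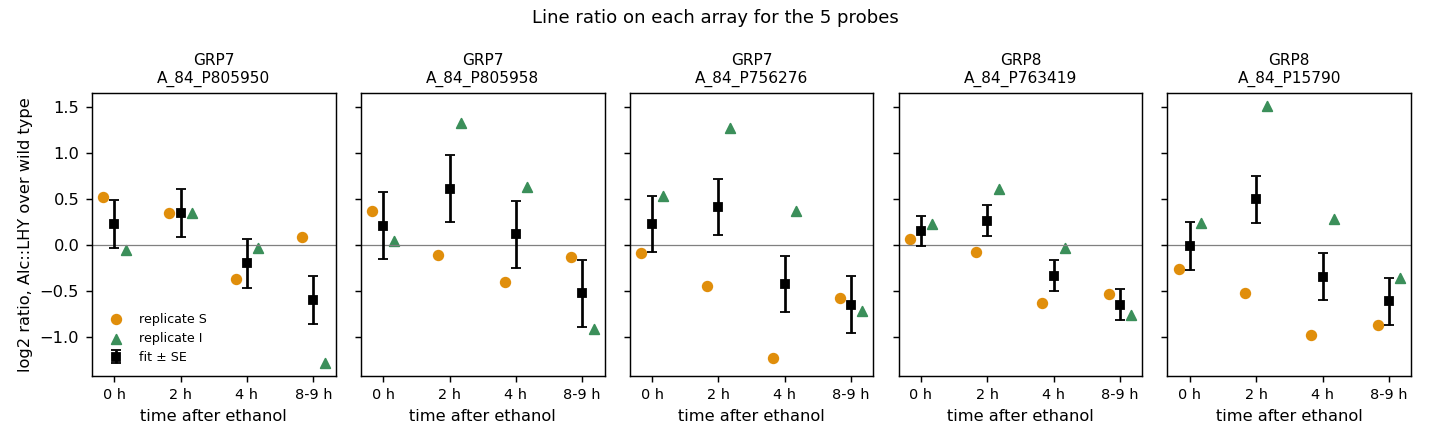
Log2 ratio of Alc::LHY over wild type on each array for the 5 probes, with orange circles for replicate S, green triangles for replicate I and black squares for the fitted value with its standard error (n = 2). All 5 fitted values are above 0 at 2 h and below 0 at 8-9 h, and the single arrays scatter on both sides of 0 at 2 h on 4 of the 5 probes.

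The GRP7 fall in Alc::LHY appeared on each of its probes. In a separate-channel fit over all probes, the change from 0 to 8-9 h in Alc::LHY was -1.83 ± 0.28 on A_84_P805950, -1.86 ± 0.33 on A_84_P756276 and -2.06 ± 0.40 on A_84_P805958. All 3 were called (limma, adjusted p of 0.00123, 0.00250 and 0.00396), as were 32.6% of probes. The wild-type changes on these probes were -1.0, -0.99 and -1.33, with limma adjusted p of 0.0896, 0.150 and 0.115, and 3.91% of probes were called. The wild-type 95% intervals lay below 0 on all 3.

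The probes of GRP8 differed in size. From 0 to 8-9 h in Alc::LHY, A_84_P763419 changed by -0.70 ± 0.18 (limma, adjusted p = 0.0145) and A_84_P15790 by -0.37 ± 0.32 (adjusted p = 0.415). In wild type the values were 0.10 ± 0.18 and 0.23 ± 0.32, neither called. On the dimmer probe the wild-type channels at 8-9 h read 11.78 in S and 11.08 in I, and the Alc::LHY channels 10.91 and 10.71. Both Alc::LHY channels were below both wild-type channels there, as on the bright probe.

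**Figure D3:**
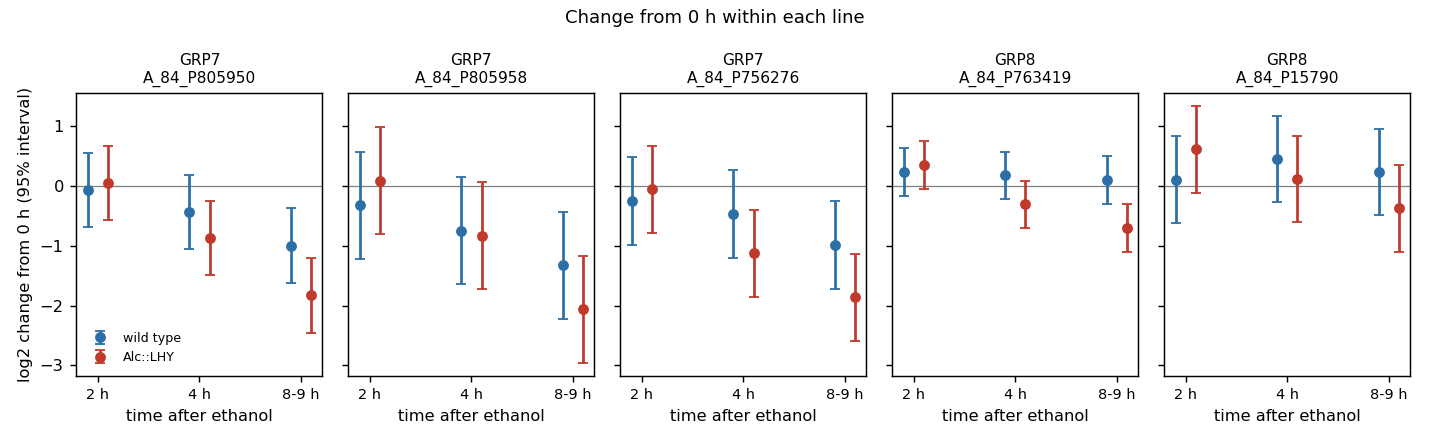
Log2 change from 0 h within wild type (blue) and within Alc::LHY (red) for the 5 probes, with 95% intervals from the separate-channel fit over all probes (n = 2 channels per line and time). At 8-9 h the 3 GRP7 probes lie between -2.06 and -1.83 in Alc::LHY and between -1.33 and -0.99 in wild type, while the GRP8 probes lie at 0.10 and 0.23 in wild type.

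The ratios of the pair did not differ consistently from each other. GRP7 minus GRP8 log2 ratio averaged 0.09 ± 0.41 (SD, n = 8 arrays), with GRP7 higher on 5 of 8 arrays (exact two-sided sign-flip permutation test, p = 0.570, the smallest possible being 0.00781). Over the 6 arrays after ethanol the mean was 0.09 ± 0.43 (same exact test, p = 0.594, smallest possible 0.0312). The replicates went opposite ways: the difference was positive on 4 of 4 arrays of S, with a mean of 0.44, and on 1 of 4 arrays of I, with a mean of -0.27. The permutation test held no dye or replicate term, so this split is part of the spread it used. Over the 16 channels, after removal of dye and replicate terms, levels of the pair correlated at r = 0.81. Of 21412 genes, GRP8 ranked 150 in likeness to GRP7, and GRP7 ranked 22 in likeness to GRP8. The channels share arrays and times, so these values are a description.

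The 5 genes most like GRP7 were chosen for their correlation with it across the 16 channels, so that a pattern shared with GRP7 follows from the choice. The nearest was an unnamed transcript, DR229193 (r = 0.98), for which no locus was found. THIC, an enzyme of thiamine synthesis (r = 0.93), AT5G62720 (r = 0.93), OEP16-1, a pore protein of the plastid outer envelope (r = 0.92), and ACA8, a calcium pump (r = 0.92), followed. Their log2 changes from 0 to 8-9 h were -1.37 to -0.71 in wild type and -2.13 to -1.16 in Alc::LHY for these 4. As a description with no test, the line ratios at 8-9 h were -0.50 for DR229193, -0.59 for THIC and -0.52 for AT5G62720. They were -0.77 for OEP16-1 and -0.26 for ACA8.

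The 5 genes most like GRP8, chosen in the same way, were MPB2C, a microtubule-associated protein (r = 0.90), BGLU42, a beta-glucosidase (r = 0.89), AT1G27020 (r = 0.89), ERF9, a transcription factor of the ethylene response factor family (r = 0.88), and ROC1, a cyclophilin (r = 0.87). Wild-type changes from 0 to 8-9 h were -0.10 to 0.28 and Alc::LHY changes -1.14 to -0.43. As a description, the log2 line ratios at 8-9 h were -0.73 for ROC1, -1.04 for AT1G27020, -0.49 for BGLU42, -0.42 for ERF9 and -0.32 for MPB2C.

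Of the other GR-RBP genes, 4 of 5 were higher in Alc::LHY at 8-9 h and GR-RBP2 was called at no time. Their products carry the same domain plan, and 5 of the 5 listed were measured, each with 1 probe. At 2 h 1 was higher in Alc::LHY and 0 lower, at 4 h 3 were higher and 0 lower, and at 8-9 h 0 were lower. Of all genes 6.36%, 17.3% and 16.8% were called higher at these times. The list's median log2 ratio was 0.20, 0.36 and 0.56, beside medians over all genes of 0.00, -0.01 and -0.01. At 8-9 h GR-RBP5 was at 0.82 in S and 0.46 in I, and was higher by 0.64 ± 0.09 (SE, n = 2; limma, adjusted p = 0.00276). GR-RBP3 was at 0.42 and 1.06, with a difference of 0.74 ± 0.16 (limma, adjusted p = 0.0120). GR-RBP6 was at 0.41 and 0.71, with a difference of 0.56 ± 0.09 (limma, adjusted p = 0.00467). All these arrays were above 0. The remaining pair, named to complete the list after their values were seen, were GRP4 at 0.41 ± 0.12 (limma, adjusted p = 0.0367, lost in 6 of the 12 settings) and GR-RBP2 at 0.25 ± 0.12 (adjusted p = 0.153). Every setting tried kept the median at 8-9 h above 0, between 0.47 and 0.85. Median centring left 0 of 5 called at each time, as did leaving out the replicate I array of 8-9 h for that time and leaving out either array of 4 h for 4 h. Without the replicate block 2 of 5 were called at 4 h.

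More distant glycine-rich RNA-binding genes were mixed. Of 3 RZ-1 genes, which add a zinc finger to the same plan, Alc::LHY had 2 higher and 1 lower at 8-9 h, when 16.8% of all genes were called higher and 20% lower. Leaving out either array of 8-9 h left 1 higher and 0 lower, and dropping the replicate block 1 higher and 1 lower. AtRZ-1c was at 1.08 in S and 1.39 in I at 4 h, a difference of 1.23 ± 0.09 (SE, n = 2; limma, adjusted p = 0.000392). AtRZ-1b was higher at 8-9 h by 0.40 ± 0.11 (limma, adjusted p = 0.0254). ATRZ-1A, known for a role in cold tolerance, was at -0.63 and -0.69 at 8-9 h, a difference of -0.66 ± 0.10 (limma, adjusted p = 0.00332), close to the GRP8 value. Both AtRZ-1c arrays were above 0 and both ATRZ-1A arrays below 0.

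Of 4 cold shock domain genes, whose products are glycine-rich RNA chaperones, 2 were higher and 1 lower at 4 h, when 17.3% of all genes were called higher and 19.4% lower. Leaving out either array of 4 h left 1 higher and 0 lower, and median centring 0 higher and 1 lower. GRP2 was at 1.11 in S and 1.21 in I at 2 h, a difference of 1.16 ± 0.11 (SE, n = 2; limma, adjusted p = 0.00179), and was still higher by 0.60 at 8-9 h. CSP3 was higher by 0.48 ± 0.09 at 4 h (limma, adjusted p = 0.00789). GRP2B was lower by a log2 ratio of -1.0 ± 0.22 at 4 h (limma, adjusted p = 0.0136). At 8-9 h 1 gene of the list was higher and 1 lower, when 16.8% of all genes were called higher and 20% lower. Both of these calls were lost when either array of that time was left out.

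**Figure D4:**
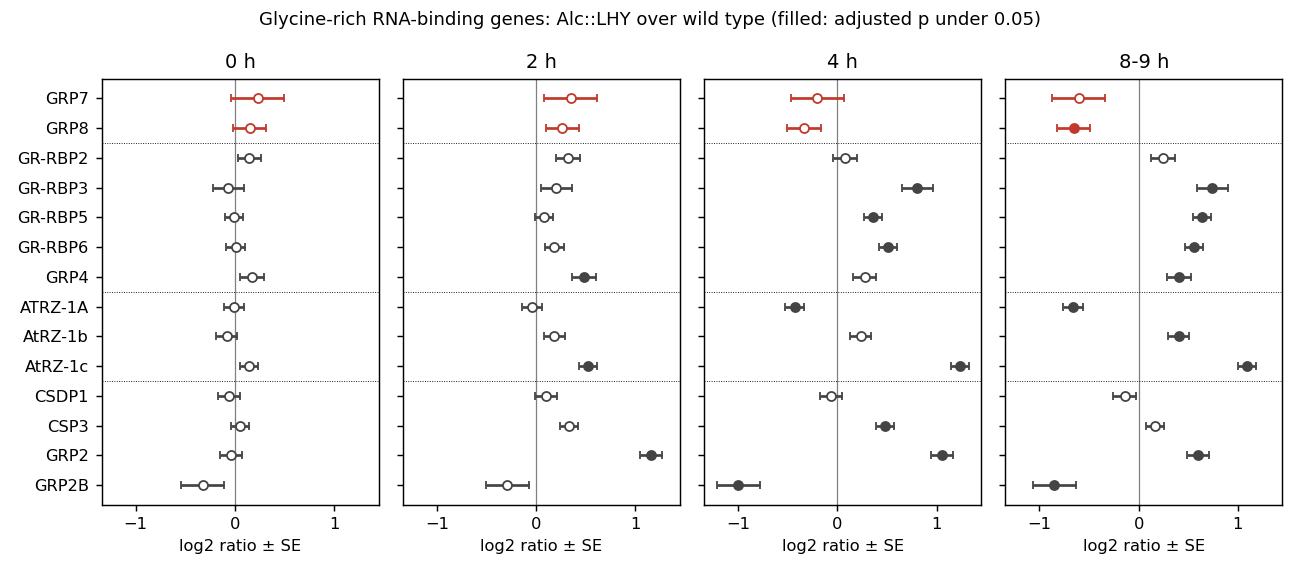
Fitted log2 ratio of Alc::LHY over wild type with its standard error (n = 2 arrays) at each time for GRP7 and GRP8 (red) and, between dotted lines, for 5 GR-RBP, 3 RZ-1 and 4 cold shock domain genes (grey), with filled symbols where the adjusted p was under 0.05. At 8-9 h GRP7 and GRP8 lie below 0 at -0.60 and -0.65, and the 5 GR-RBP genes lie above 0 between 0.25 and 0.74.

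Other genes that peak in the evening were taken as a list of 14. Of the 14 measured, 0 were higher and 1 lower at 2 h, 1 higher and 3 lower at 4 h, and 1 higher and 1 lower at 8-9 h. Of all genes 7.82%, 19.4% and 20% were called lower at these times, and 6.36%, 17.3% and 16.8% higher. The share of the list called lower at 4 h was thus near that of all genes. The medians were -0.21, -0.36 and 0.00, and over the settings tried the median at 4 h ran from -0.86 to 0.052. CAT3, an evening catalase, was at -1.18 in S and -1.54 in I at 8-9 h, a difference of -1.36 ± 0.21 (SE, n = 2; limma, adjusted p = 0.00356). Its other probes gave smaller differences at that time, from -1.30 to -0.67. PCL1, the evening complex gene also called LUX, was lower at 2 h with a difference of -0.93 ± 0.22 (limma, adjusted p = 0.0392). It was lower again at 4 h, with a difference of -1.0 ± 0.22 (limma, adjusted p = 0.0149). The other PCL1 probes gave smaller differences, -0.80 and -0.51 at 2 h and -0.84 and -0.39 at 4 h. The PCL1 call was lost in 8 of the 12 settings at 2 h, and at 4 h with median centring and when the S array of 4 h was left out. BOA, a close homologue of PCL1, was higher at 8-9 h by 1.22 ± 0.22 (limma, adjusted p = 0.00639). At 8-9 h the BOA call was lost with median centring and without either array of that time, and the CAT3 call with median centring and without the replicate I array. At 8-9 h, when GRP8 was called, PCL1 was at -0.40 ± 0.22 (limma, adjusted p = 0.210).

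CCA1, the MYB-like partner of LHY, was at -0.44 in S and -1.45 in I at 4 h, a difference of -0.94 ± 0.22 (SE, n = 2; limma, adjusted p = 0.0168). The call was lost with median centring, with the scanner software's ratio and without the replicate I array of 4 h. CCA1 was not called at 2 or 8-9 h.

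Genes that act downstream of GRP7 or are bound by its protein were few on the filtered arrays. Of 6 listed, 4 were measured, and FLS2 and PR1 were not among the genes tested. At 2 h 1 was higher and 1 lower, and at 4 h and at 8-9 h 1 was higher and 0 lower. Of all genes 6.36% were called higher and 7.82% lower at 2 h, and 17.3% and 16.8% higher at 4 and 8-9 h. BGL2, another defence gene, was at -0.057, 0.050 and 0.17 at 2, 4 and 8-9 h, and AT2G33830 at -0.50, 0.76 and 0.29, none of them called. PR5, a defence gene, was at 1.12 in S and 1.71 in I at 2 h, a difference of 1.41 ± 0.20 (SE, n = 2; limma, adjusted p = 0.00707). At 8-9 h PR5 was higher by 1.33 ± 0.20 (limma, adjusted p = 0.00364), and at 4 h by 0.65 ± 0.20 (limma, adjusted p = 0.0464), a call that was lost in 10 of the 12 settings. The calls at 2 and 8-9 h were lost without either array of their time, and the one at 2 h also with median centring. FLC, the floral repressor whose transcript GRP7 is known to lower, was at -0.87 in S and -0.54 in I at 2 h, a difference of -0.71 ± 0.17 (limma, adjusted p = 0.0404). The FLC call was lost in 6 of the 12 settings, with median centring, without the replicate block and without any 1 array of 2 or 4 h. FLC was already at -0.62 and -0.64 at 0 h, before ethanol (limma, adjusted p = 1.0).

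Genes of nonsense-mediated decay and of the cap-binding machinery, through which the alternative GRP7 and GRP8 splice forms are turned over or made, were called in part. Of 7 measured, 0 were called at 2 h, 5 were higher at 4 h and 4 at 8-9 h, and 0 were lower at any time, beside 17.3% and 16.8% of all genes called higher at the later times. The 5 calls at 4 h became 0 with median centring, 2 without the replicate block, 1 without the replicate S array and 2 without the replicate I array of 4 h. At 8-9 h the other settings called 0 to 3. The medians were 0.26, 0.42 and 0.30, and over the settings tried the median at 4 h ran from 0.26 to 0.58. LBA1, the helicase also called UPF1, was at 0.70 in S and 0.65 in I at 4 h, a difference of 0.67 ± 0.16 (SE, n = 2; limma, adjusted p = 0.0181). SE, which acts with the cap-binding complex in splicing, was higher by 0.42 ± 0.09 at 4 h (limma, adjusted p = 0.0138). Both arrays of each gene were above 0 at that time. The annotation names a different GRP7 transcript for A_84_P805950 than for A_84_P756276 and A_84_P805958. Without probe sequences the probes were not assigned to splice forms here, so the balance of productive and degraded forms was not analysed.

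Some markers of tissue also differed between the lines. In Alc::LHY, 4 of 5 green shoot markers were lower and 0 higher at 4 h, and 3 were lower and 0 higher at 8-9 h, with medians of -1.65 and -0.83 and gene values of -1.80 to -0.21 and -1.21 to -0.15. Of all genes, 19.4% and 20% were called lower at 4 and 8-9 h. The most marked by p were LHCB2.1, CAB1 and CAB2, genes for chlorophyll-binding proteins. The rest of the list, named after their values were seen, were RBCS1A and RBCS3B. At 8-9 h RBCS1A was at 0.38 in S and -0.68 in I, and RBCS3B at 0.58 and -1.19, neither called. At 4 h RBCS1A was at 0.003 in S and -1.02 in I, and its call was lost in 5 of the 12 settings. Of 6 root markers measured of 7 listed, 1 was higher and 3 lower at 4 h, and 1 higher and 2 lower at 8-9 h, with gene values of -1.40 to 1.70 and -1.16 to 2.71. Of all genes, 17.3% and 16.8% were called higher at these times. SHV2, a root hair gene, was the higher one at 8-9 h, and SHR and SCR, transcription factors of the root ground tissue, were the lower ones. The other SCR probe was at -0.057 at 8-9 h, against -0.81 on the brightest SCR probe. The part of these markers in the GRP7 and GRP8 results was not tested.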

How the data were processed

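RNA of both lines was hybridised to 8 Agilent 2-colour arrays. The deposited median spot and background signals are intensity values in scanner units, per the file headers. The deposited log ratio is a log10 value, Cy5 over Cy3, as corrected by the scanner software (Agilent Feature Extraction 10.7.3.1, per the submitters' processing notes). The authors' matrix holds the same log10 ratios with Alc::LHY as numerator, and its column medians were 0. Mean spot signals were not used here, and median signals took their place.

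Signals were corrected with normexp (offset 50) and normalized by loess within arrays. Kept were probes that exceeded background clearly in 1 channel or both on 2 or more arrays and had values on 6 or more, and the brightest probe stood for a gene. Transcript accessions were matched to loci through the TAIR10.1 gene table. Coordinates are left out because the files' annotation uses another build. Probe and promoter sequences were not analysed here, so hybridisation of a probe to the paralog cannot be separated and the planned motif search was not run. Turned log2 ratios were fitted with limma 3.58.1 (R 4.3.3, statmod 1.5.0) over 21471 genes and unnamed transcripts, with a coefficient per time and a dye term (3 residual and 3.59 prior degrees of freedom). Levels within a line came from limma's separate-channel fit after Aquantile (21412 genes, 6 residual degrees of freedom, intraspot correlation 0.336). Genes were called at a Benjamini-Hochberg adjusted p under 0.05 across all genes. The fit of line ratios was tested on simulated data, and the separate-channel fit and the permutation test were not part of that test. Arrays of a replicate share a slide and a dye orientation, which pairs them across times. The correlation of their deviations was -0.02 to 0.60 over 6 pairs of times, and the dye term is the replicate block. The number of arrays limits the precision.

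Named were both genes with all probes, LHY, up to 3 called genes per list with the smallest adjusted p, and the 5 genes most alike to each member. The values of 1 gene that this rule names are not reported here. Members and lists were chosen with earlier results of these data known. Alternatives were other background and array normalizations, the authors' matrix, other filters and probe rules, an intensity trend, no replicate block and leaving out each array. Those on single probes, on gene lists and on line differences from separate channels were chosen after seeing the data.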

Additional observations from a re-analysis of the deposited data

How the results depend on the processing

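The values of GRP7 and GRP8 were recomputed 510 times over 32 results. Of these, 486 kept their side of the threshold, 21 lost the call, 3 gained one, and 0 called values changed sign. The fall of GRP7 in Alc::LHY from 0 to 8-9 h kept its call throughout, with -2.25 to -1.34 on leaving out each array. The GRP8 line difference at 8-9 h lost its call with the scanner software's ratio (-0.52, adjusted p = 0.0757), the authors' matrix (-0.52), median centring (-0.49, adjusted p = 0.291), the mean of its probes (-0.63, adjusted p = 0.0542) and probe A_84_P15790 (-0.62), and ranged from -1.01 to -0.29 on leaving out each array. The GRP8 change in Alc::LHY from 0 to 8-9 h lost its call without between-array normalization (-0.58, adjusted p = 0.180) and on probe A_84_P15790 (-0.37), and ranged from -0.93 to -0.43 (limma, adjusted p of 0.0149 to 0.165) on leaving out each array. The GRP7 change in Alc::LHY from 0 to 4 h lost its call without between-array normalization (-1.25, adjusted p = 0.0621), with quantile normalization over all channels (-0.82, adjusted p = 0.0612), on probe A_84_P805958 (-0.83), without the replicate block (-0.86, adjusted p = 0.0896), and on leaving out any array of 0, 2 or 4 h (-1.08 to -0.64). Dropping the replicate block changed no other call of GRP7 or GRP8. Without the replicate S array of 8-9 h, calls were gained for the GRP7 line difference at 8-9 h (-1.25 to 0.040 on leaving out each array) and for the shifts from 0 to 8-9 h of GRP7 (-1.47 to -0.19) and GRP8 (-1.16 to -0.44). The cause was not tested. Median centring turned the sign of the uncalled line differences at 2 h, to -0.23 for GRP7 and -0.27 for GRP8, and moved the median of all genes to -0.12 at 2 h and 0.11 at 8-9 h.

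Over all settings the genes called numbered 0 to 20 at 0 h (3 in the reported fit), 0 to 4150 at 2 h (3043), 1443 to 7982 at 4 h (7887) and 285 to 8041 at 8-9 h (7885), and median centring gave the lowest of these after ethanol. With median centring, the list genes called at 8-9 h came to 0 of 5 GR-RBP, 0 of 3 RZ-1, 0 of 4 cold shock domain, 0 of 7 decay and cap-binding, 0 of 14 evening and 0 of 5 green shoot genes. Under that setting 1 of 6 root markers (SHV2) and 1 of 4 measured genes linked to GRP7 (PR5) stayed called as higher. The medians of these lists kept their sign at that time. Where an array was left out, the remaining array of its time was assumed to vary like the others, and separate-channel fits kept the full fit's intraspot correlation. Both genes were well above background on every array, and the number of arrays limits the precision.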
